A study of Mus musculus with 18 samples.

Results

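The mouse genes of the cytosolic ribosomal proteins were followed through 18 RNA-seq libraries of a brain study in which peroxisomal genes were perturbed. They were taken as every row whose symbol is Rpl or Rps with a number and an optional a, x, y or l suffix, or Rpsa, Rplp0, Rplp1 or Rplp2. The pattern found 90 of 32941 genes, the same 90 in each of 4 tables, with 54 symbols of the large subunit (Rpl) and 36 of the small (Rps). GENCODE M21 annotated 84 of them as protein coding and 6 as pseudogenes (Rpl32l, Rpl6l, Rps12l1, Rps3a2, Rps3a3 and Rps4l). Fau and Rack1, which also encode proteins of the ribosome, fall outside the pattern and are given apart.

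The groups were NSC-Pex7sh, primary neural stem cells with a short hairpin against Pex7 (2 libraries), and NSC-Scramble, the same cells with a scrambled hairpin (2). PLA1 and Neuron-PLA were labelled brain with overexpression of PLAAT3-PEX11 (2 libraries each), and Ctrl1 and Neuron-ctrl were their wild-type controls (2 each). PLA1 and Ctrl1 are called the first set, and Neuron-PLA and Neuron-ctrl the neuron set. The other 6 libraries, labelled brain and WT, covered embryonic days 11, 12, 13, 14, 16 and 18 (E11 to E18), with 1 library per stage here, although the design text speaks of triplicates. The labels give no strain, no age for the perturbed samples, no promoter for the overexpression and no method by which neurons were obtained. Separate animals or cultures are not named for the libraries of a group. Each p-value between groups thus measures only how these libraries spread, and that spread may be technical.

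A ribosome joins a small subunit, which decodes the mRNA, to a large subunit, which forms peptide bonds, and each subunit holds many proteins made in near equal numbers. Their mRNAs carry a terminal oligopyrimidine tract (TOP) at the 5′ end, through which mTORC1 and the RNA-binding protein Larp1 control their translation and stability. The demand for ribosomes is high in dividing progenitors, as in the early cortex. These genes are also among the most copied of mammalian genomes: many intronless processed pseudogenes derive from their mRNAs and remain so similar that a read can match gene and copy alike.

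The sequences below show how close such copies are, for the 4 members whose reads shifted most between gene and copy over the stages. Each pair is a 60-base coding stretch, with the bases that differ between gene and copy in capitals, in mm10 coordinates and from the GENCODE M21 transcripts. The genes lie at chr17:24718116-24721929 (Rps2, + strand), chr9:120127689-120132369 (Rpsa, +), chr10:128624534-128626747 (Rps26, −) and chr11:68901583-68906989 (Rpl26, +). The copies lie at chrX:52898588-52899469 (Rps2-ps13, +), chr3:150072658-150073542 (Rpsa-ps10, −), chr8:107439131-107439579 (Rps26-ps1, −) and chr5:3236431-3236868 (Gm15772, +).
Rps2: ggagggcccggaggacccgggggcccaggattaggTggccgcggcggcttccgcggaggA
Rps2-ps13: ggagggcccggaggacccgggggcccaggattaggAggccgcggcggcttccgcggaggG
Rpsa: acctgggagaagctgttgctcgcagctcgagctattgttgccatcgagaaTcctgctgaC
Rpsa-ps10: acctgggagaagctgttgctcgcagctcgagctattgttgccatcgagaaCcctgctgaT
Rps26: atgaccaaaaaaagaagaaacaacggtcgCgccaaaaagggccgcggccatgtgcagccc
Rps26-ps1: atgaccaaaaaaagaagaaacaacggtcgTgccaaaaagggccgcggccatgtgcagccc
Rpl26: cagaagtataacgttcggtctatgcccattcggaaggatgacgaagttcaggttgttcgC
Rpl26 copy Gm15772: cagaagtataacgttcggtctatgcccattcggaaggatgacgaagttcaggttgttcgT

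Over the whole coding sequence, Rps2 and Rps2-ps13 differed at 7 of 879 aligned bases (99.2% identity), and the longest stretch without a difference was 302 bases. Rpsa and Rpsa-ps10 differed at 6 of 885 (99.3%), Rps26 and Rps26-ps1 at 2 of 345 (99.4%), and Rpl26 and Gm15772 at 2 of 435 (99.5%). Of the 90 members, 87 shared at least 1 stretch of 50 bases with the transcript of another gene. In 37 members at least 50% of the 100-base windows were shared, on either strand and with any other gene, also one at the same place. Their values may be uncertain between genes, though the other gene is not always a copy. Rps12l1 shared 100% of these windows, and 100% of its exon bases lay opposite another gene. The most copied was Rpl7a, with 120 annotated pseudogenes that held 50 of its bases, followed by Rpl21 and Rpl29 with 81 each and Rps2 with 71. In the tables, 672 pseudogene rows could be assigned to a member.

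Values were RPKM (reads per kilobase of exon, scaled to library size). Whole reads could be recovered from them. Totals were 16147911 to 28104926 reads for the 12 perturbation libraries, and 41501880 to 54373317 reads for the stages. Pex7 was 0.5004 and 0.669 RPKM in NSC-Pex7sh, against 1.19 and 1.22 RPKM in NSC-Scramble. Plaat3 was 31.4 and 29.1 RPKM in PLA1, against 0.413 and 0.431 in Ctrl1, and 19.0 and 20.8 RPKM in Neuron-PLA, against 0.0699 and 0.230 in Neuron-ctrl. All 12 neuronal markers checked stood at 1 RPKM or more in every library, and all 10 radial glia and stem cell markers did so in the stem cells. In bulk RNA, a change in the number of cells of a type and a change in RNA per cell cannot be told apart.

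Through the stages the members were highest at E11. Their summed level was 32853, 21211, 22171, 25103, 22145 and 20197 RPKM at E11, E12, E13, E14, E16 and E18, which was 5.44%, 3.58%, 3.697%, 4.16%, 3.63% and 3.22% of all reads. The 95% Wilson interval of the E11 share was 5.43% to 5.44%, and intervals here cover counting error only. E11 thus stood above the other stages, a smaller peak lay at E14, and E18 was lowest. Of the 87 members that averaged 1 RPKM or more over the stages, 79 had their highest value at E11 and 52 their lowest at E18. Over all genes tested, 32.4% were highest at E11 and 43.2% lowest at E18. The median member at E11 was 1.53 times its own E12 level, and the middle 80% of members lay between 1.25 and 1.74 times. The same median over all genes was 0.968 times.

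The 5 highest members by mean RPKM were Rps15, Rplp1, Rplp0, Rps3a1 and Rpl23a. Rps15, a protein of the small subunit head, was 1606, 933, 905, 1167, 1010 and 1017 RPKM from E11 to E18. The stalk of the large subunit, which recruits elongation factors, is built of Rplp0, Rplp1 and Rplp2. Rplp0 was 1147, 838, 925, 1102, 909 and 738 RPKM. Rplp1 was 1501, 763, 764, 879, 813 and 1107 RPKM and so was high at both ends. Rplp2 was 240, 137, 140, 157, 135 and 128 RPKM. None of the 3 stalk genes passed the test on the slope.

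**Figure D1:**
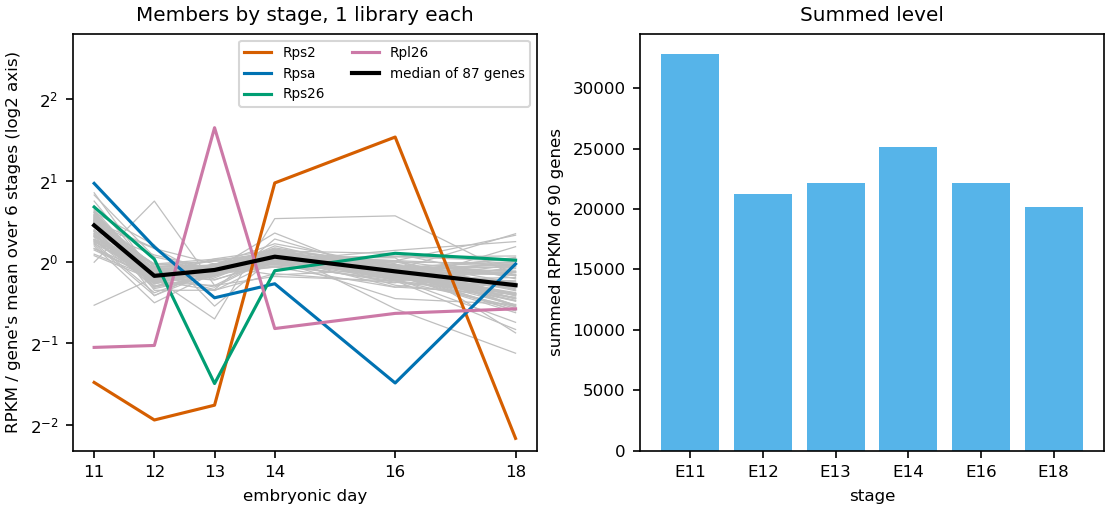
Left, RPKM of each of the 87 members that averaged 1 RPKM or more, divided by its mean over the 6 stages (log2 axis), against embryonic day, with Rps2, Rpsa, Rps26 and Rpl26 coloured and the median in black. Right, summed RPKM of the 90 members per stage (1 library each), which was 32853 at E11 and between 20197 and 25103 afterwards. The coloured genes leave the band of the others, as Rps2 does at E16 with 366 RPKM against 32.8 RPKM at E12.

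A linear slope of log2(RPKM + 1) on embryonic day was fitted with limma to all 12921 genes that averaged 1 RPKM or more, with Benjamini-Hochberg adjustment and a threshold of 0.05. In all, 45.1% of these genes were called. A higher level with age was called for 0 of 87 members (and for 0 at an unadjusted p under 0.05, where limma-voom on recovered reads also gave 0), against 19.6% of all genes. The slope was positive in 8 members and negative in 79. A lower level with age was called for 17 of 87 members, against 25.5% of all genes. The members' share was thus no larger than the background. With 1 library per stage, the p-value of a slope measures departure from a straight line. A step after E11 or a peak at E14 therefore counts as error in this fit. At an unadjusted p under 0.05, 27 members were lower, against 30.5% of all genes. Their median slope was −0.07 per day and that of all genes −0.02 per day, both on the log2 scale. The count moved when a single stage was left out and with other processing. The share of all genes called is not given for these fits, so their counts cannot be set against a background. The members' count was 3 without E11, 30 without E12, 9 without E14, 7 without E16 and 2 without E18. Without E11 another 3 members were called higher. It was also 9 with median-ratio scaling, 5 with upper-quartile scaling and 11 after a trend on length and GC was taken out.

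Among the 17 was Rps27l, a paralogue of Rps27 that p53 is known to induce, at 102, 60.1, 53.7, 64.4, 38.6 and 26.4 RPKM from E11 to E18. It fell by 0.23 per day on the log2 scale (SE 0.04, limma adjusted p = 0.00269), and it was called in all 14 alternatives run (adjusted p 0.00281 to 0.0451). Also among the 8 steepest were Rpl7l1, Rpl22l1, Rps6, Rps27a, Rps3a2 and Rpl5. Rps6, the small subunit protein phosphorylated downstream of mTORC1, was 623, 406, 405, 441, 375 and 273 RPKM. Its slope was −0.13 per day (SE 0.03, limma adjusted p = 0.0187). Rpl5, which carries 5S RNA and binds Mdm2, was 256, 184, 191, 194, 172 and 123 RPKM. Its slope was −0.12 per day (SE 0.03, limma adjusted p = 0.0148). Its partners in Mdm2 binding did not pass the test, with slopes of −0.07 per day for Rpl11 (limma adjusted p = 0.162) and −0.03 per day for Rpl23 (0.524).

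Markers of other cells moved with the stages too. The 8 erythroid genes summed to 6759 RPKM at E11 and to 253 to 1480 RPKM from E12 to E18, and all 8 were at 1 RPKM or more at E11. The 8 mitosis genes summed to 345, 260, 178, 180, 84.4 and 18.4 RPKM from E11 to E18. The 12 neuronal genes summed to 1042, 1697, 2058, 2150, 2779 and 3133 RPKM. Their part in the members' course was not tested.

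In 4 members the share of the family's reads on the gene row, rather than on its pseudogenes, ranged by more than 30 percentage points between stages: Rps2, Rps26, Rpsa and Rpl26. They were singled out after their values were seen. The Rps2 row held 82.7, 60.02, 68.1, 453, 669 and 51.3 RPM (reads scaled to library size, with no division by length) from E11 to E18, the unit of the values that follow. The Rps2-ps13 row held 895, 460, 266, 291, 4.63 and 451. The gene row was thus high at E14 and E16, and the copy was nearly empty at E16. Rps2 and all its pseudogene rows together held 1040, 654, 558, 831, 775 and 528. The family sum varied by 1.97 times between the extremes and the gene row by 13.0 times.

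Rpsa encodes a small subunit protein also known as the laminin receptor. Its row held 2581, 1501, 973, 1097, 471 and 1299 RPM, and the Rpsa-ps10 row 65.7, 35.5, 588, 663, 1039 and 24.3. Gene and copy exchanged at E13, E14 and E16, while the family sum was 2689, 1559, 1603, 1808, 1562 and 1349. Rps26, a protein of the small subunit at the mRNA exit, held 743, 476, 165, 431, 500 and 472, and Rps26-ps1 held 3.76, 2.80, 348, 145, 3.60 and 1.78. For it the exchange was at E13 and E14. Rpl26, a large subunit protein near the exit tunnel, held 42.4, 43.1, 276, 49.8, 56.7 and 58.9, and Gm15772 held 680, 451, 267, 568, 503 and 439. The Rpl26 row was high at E13, and at the other 5 stages most of the family's reads lay on the copy. The family sums of Rps26 and Rpl26 varied by 1.57 and 1.46 times between stages.

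**Figure D2:**
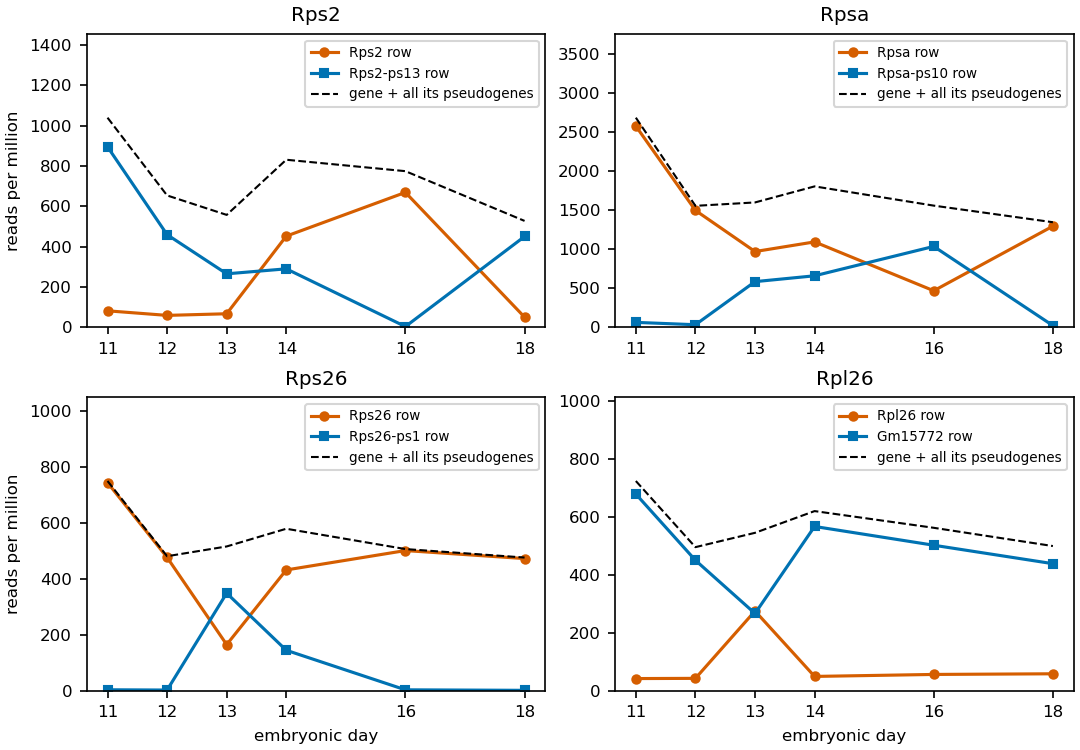
RPM against embryonic day (1 library per stage) on the row of the gene (circles), on its highest pseudogene row (squares) and on the gene with all its pseudogenes (dashed), for Rps2, Rpsa, Rps26 and Rpl26. Gene and copy rows cross between stages, as for Rps2 at E16 with 669 on the gene and 4.63 on the copy, and the dashed sums are highest at E11, for example 1040 RPM for Rps2 and 2689 for Rpsa.

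Some paralogues can replace their partners in ribosomes. Shares are given per pair as a percentage of the summed RPKM, an RNA share that does not give the make-up of ribosomes. Rps4l, in 1 of the pairs, is annotated as a pseudogene. Rps27l made up 27.0%, 25.8%, 21.8%, 21.4%, 15.8% and 10.83% of the Rps27 pair from E11 to E18. The share fell at each stage. Rpl22l1 made up 36.0%, 26.1%, 24.1%, 25.3%, 19.4% and 19.3% of its pair with Rpl22, an RNA-binding protein of the large subunit. Rpl22 itself was 119, 93.6, 100.3, 111, 113 and 108 RPKM (slope 0.01 per day, limma adjusted p = 0.843). Rpl36al made up 33.0% to 41.1% of its pair with Rpl36a, Rpl7l1 7.79% to 9.99% of its pair with Rpl7, and Rps4l 3.05% to 5.12% of its pair with Rps4x. Rpl3l, the striated muscle form of Rpl3, reached at most 0.0880 RPKM in the stages, and Rpl39l at most 0.0574 RPKM. Rpl10l, the testis form of Rpl10, was listed at 0 in all 6 stages.

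**Figure D3:**
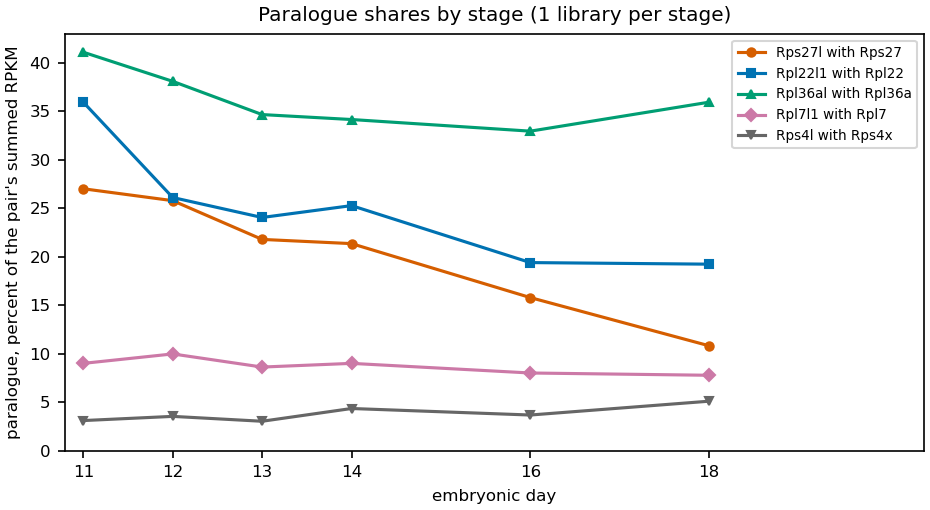
Share of the paralogue in the summed RPKM of its pair, in percent, against embryonic day (1 library per stage). The Rps27l share is 27.0% at E11 and 10.83% at E18, and the Rpl22l1 share 36.0% at E11 and 19.3% at E18.

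In neural stem cells with the Pex7 hairpin no member was called. The summed level was 10000 and 9484 RPKM in NSC-Pex7sh, against 10749 and 8819 in NSC-Scramble. The scramble libraries enclosed both knockdown libraries. Of 83 members tested, 0 were called with limma in either direction, and 0% of 12482 genes were. None had an unadjusted p under 0.05, against 1.47% of all genes, and limma-voom also called 0. The median change was 0.00 on the log2 scale (SD over members 0.07). It moved to 0.14 without the first scramble library and to −0.13 without the second, and 82 of 83 members were higher in the first than in the second.

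The 5 members of smallest p, none of which passed, were Rpl34, Rpl6l, Rps27a, Rpl7l1 and Rps3a3. Rpl34 was 4.75 and 4.09 RPKM in NSC-Pex7sh, against 6.75 and 5.19 in NSC-Scramble (log2 change −0.36, SE 0.14, limma adjusted p = 1.00). Rps27a, which makes a ribosomal protein fused to ubiquitin, was 85.1 and 66.3 RPKM in NSC-Pex7sh, against 97.3 and 77.9 in NSC-Scramble. The groups overlap. The highest members in both groups were Rplp0, Rplp1, Rps3a1, Rps15 and Rpl4, as Rplp0 with 552 and 530 RPKM in NSC-Pex7sh, against 588 and 482 RPKM in NSC-Scramble.

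With PLAAT3-PEX11 overexpression in the first set, many members fell together. Their summed level was 6154 and 5097 RPKM in PLA1 (1.19% and 0.998% of reads), against 8034 and 6527 in Ctrl1 (1.53% and 1.25%). The groups did not overlap, and the ratio of their means was 0.773. Among 81 members tested with limma, 36 were called lower, against 13.2% of 11623 genes, and 2 were called higher, against 16.3%. In either direction, 29.6% of all genes were called. At an unadjusted p under 0.05, 56 members differed, against 42.6% of all genes. In 53 members both PLA1 libraries lay below both controls, against 29.7% of all genes, and in 7 above, against 39.6%. The median change was −0.42 for the members and 0.06 for all genes, on the log2 scale. Members also shifted together between replicates, so they are not independent of each other. Of the 81, 77 were higher in the first Ctrl1 library than in the second (median difference 0.34). In PLA1, 68 were higher in the first library (median difference 0.23). The same median over all genes was −0.01 in both groups.

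The largest fall was that of Rps27, a zinc-binding protein of the small subunit, at 23.0 and 16.6 RPKM in PLA1, against 43.9 and 30.3 in Ctrl1 (log2 change −0.87, SE 0.20, limma adjusted p = 0.0175). Rpl19, of the large subunit, was 7.998 and 6.98 RPKM in PLA1, against 16.6 and 12.5 in Ctrl1 (−0.86, SE 0.15, limma adjusted p = 0.00677). The stalk protein Rplp1 was 85.3 and 72.3 RPKM in PLA1, against 163 and 117 in Ctrl1 (−0.81, SE 0.15, limma adjusted p = 0.009125). In all 3 both PLA1 libraries lay below both Ctrl1 libraries. Also among the 8 largest falls were Rps27a, Rpl41 (one of the smallest proteins known), Rpl37 and Rps19 (a gene of Diamond-Blackfan anaemia in humans), with log2 changes of −0.78, −0.77, −0.74 and −0.72. The 8 thus held members of both subunits.

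Rplp0 also fell, at 845 and 681 RPKM in PLA1, against 1162 and 957 in Ctrl1 (−0.47, SE 0.12, limma adjusted p = 0.0280). Of the Mdm2-binding members, Rpl11, Rpl23 and Rpl5 all fell, by 0.67, 0.57 and 0.33 on the log2 scale. Rplp2 (−0.38, limma adjusted p = 0.0758) and Rpsa (−0.38, 0.0512) did not pass. Rpl4, the highest member of the table, was 1300 and 1083 RPKM in PLA1, against 1369 and 1189 in Ctrl1. Its groups overlap.

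The members called higher were Rpl7l1 and Rpl34. Rpl7l1, a paralogue of Rpl7, was 153 and 146 RPKM in PLA1, against 127 and 130 in Ctrl1 (0.22, SE 0.07, limma adjusted p = 0.0495). The groups did not overlap, but the call was lost without any 1 of the 4 libraries. Its share of the pair with Rpl7 was 84.4% and 86.2% in PLA1, against 74.0% and 78.5% in Ctrl1. Rpl34 was 6.23 and 4.35 RPKM in PLA1, against 3.27 and 2.46 in Ctrl1 (0.69, SE 0.19, limma adjusted p = 0.0349). Its groups did not overlap, but the call was lost without the second Ctrl1 library or the first PLA1 library. Most Rpl34 reads lay on the copy Rpl34-ps1, at 19.4 and 16.4 RPM in PLA1, against 36.9 and 25.7 in Ctrl1. With all pseudogene reads added, an alternative chosen after seeing the data, the Rpl34 family changed by −0.29 (SE 0.20, limma-voom adjusted p = 0.293, range over all alternatives 0.00455 to 0.388).

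Without 1 library, the members' median change was between −0.61 and −0.25, while the number called lower varied widely. Markers of other cells moved in the same comparison. All 8 microglial genes were called lower, with sums of 187 and 202 RPKM in PLA1, against 461 and 430 in Ctrl1. Of 12 neuronal genes 8 were called lower, with sums of 1237 and 1169 RPKM in PLA1, against 2124 and 2094 in Ctrl1. The 6 astrocyte genes summed to 80.1 and 85.2 RPKM in PLA1, against 212 and 210 in Ctrl1. Of the 3 tested, 1 was called lower and 1 higher, and 2 had positive changes (median 0.14). Gfap was at 0 in both PLA1 libraries and in the first Ctrl1 library. The 7 endothelial and pericyte genes summed to 1.37 and 1.95 RPKM in PLA1, against 3.24 and 3.61 in Ctrl1. These sums are near the floor, with 0 of the 7 at 1 RPKM or more in PLA1 and 1 in each Ctrl1 library. Only 1 of the 7 was tested, and it was called lower. All 8 mitosis genes were called higher, with sums of 387 and 383 RPKM in PLA1, against 227 and 232 in Ctrl1. Of 10 radial glia and stem cell genes 5 were called higher and 1 lower, with sums of 377 and 376 RPKM in PLA1, against 330 and 313 in Ctrl1. Their part in the members' fall was not tested.

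**Figure D4:**
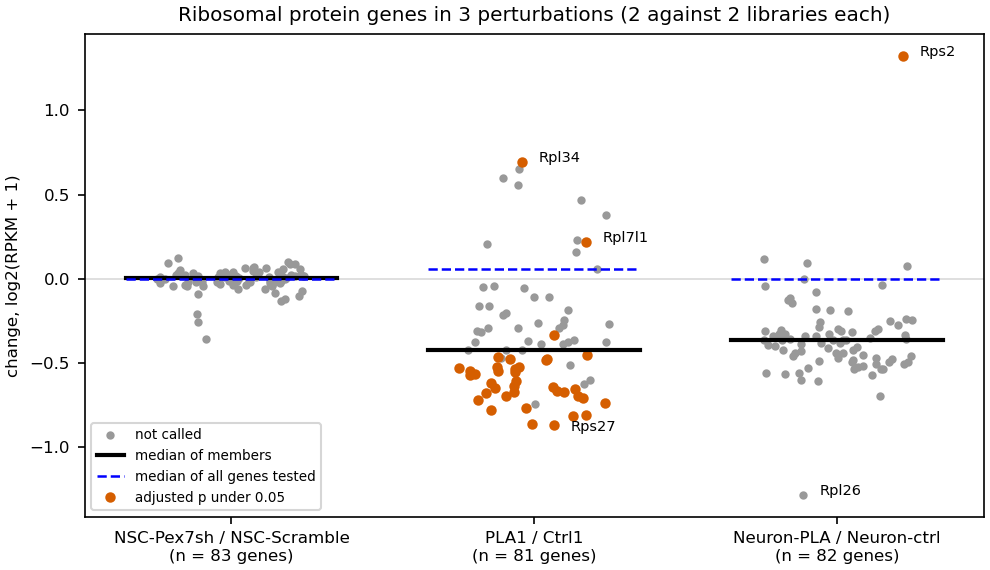
Change on the log2(RPKM + 1) scale of each tested member (points; orange where the limma adjusted p was under 0.05) in the 3 perturbations, each 2 against 2 libraries. Black bars are the members' medians (0.00, −0.42 and −0.36) and dashed bars those of all genes tested.

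In the neuron set the members were lower on balance, but hardly any passed the test one by one. The summed level was 4502 and 5126 RPKM in Neuron-PLA (0.867% and 0.976% of reads), against 6069 and 5968 in Neuron-ctrl (1.15% and 1.13%), a ratio of means of 0.800. Of 82 members 0 were called lower, against 0.501% of 11179 genes, and 1 was called higher, against 0.376%. At an unadjusted p under 0.05, 52 members were lower, against 9.80% of all genes, and 1 was higher, against 7.88%. limma-voom called 8 lower, where the share of all genes called is not given. In 71 members both Neuron-PLA libraries lay below both controls, against 25.3% of all genes, and in 1 above, against 24.7%. The median change was −0.36 for the members and 0.00 for all genes. Without 1 library, the members' median was between −0.55 and −0.22. Members shifted together between the Neuron-PLA replicates too. Of the 82, 7 were higher in the first library than in the second (median difference −0.33). In Neuron-ctrl, 37 were higher in the first library (median difference −0.02). The members' changes were related to transcript length (Spearman 0.46 over 82 members), and with a length and GC trend removed the median was −0.27.

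The 5 of smallest p were Rps2, Rpl26, Rps14, Rps3a1 and Rps9. Rps14, of the small subunit platform, was 79.8 and 99.6 RPKM in Neuron-PLA, against 135 and 136 in Neuron-ctrl (−0.60, SE 0.11, limma adjusted p = 0.0539). Rps9, at the mRNA entry, was 152 and 185 RPKM in Neuron-PLA, against 233 and 231 in Neuron-ctrl (−0.47, SE 0.09, limma adjusted p = 0.0757). Rps3a1 was 424 and 445 RPKM in Neuron-PLA, against 551 and 516 in Neuron-ctrl (−0.29, SE 0.06, limma adjusted p = 0.0731). The groups did not overlap in any of the 3, though none passed. Rplp1 was 106 and 147 RPKM in Neuron-PLA, against 179 and 189 in Neuron-ctrl (−0.56, SE 0.14, limma adjusted p = 0.113).

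Rps2 was the member called higher, at 22.4 and 15.1 RPKM in Neuron-PLA, against 6.502 and 6.99 in Neuron-ctrl (1.32, SE 0.18, limma adjusted p = 0.0315). The call held without the second Neuron-PLA library and was lost without any of the other 3. Its copy Rps2-ps13 held 80.1 and 61.5 RPM in Neuron-PLA, against 71.7 and 62.3 in Neuron-ctrl. Most reads of the family thus lay on copies. Rps2 with all pseudogenes held 156 and 118 RPM in Neuron-PLA, against 106 and 94.5 in Neuron-ctrl. That family changed by 0.41 (SE 0.14, limma-voom adjusted p = 0.128, range over all alternatives 0.0129 to 0.536). Rpl26, with the largest negative change, was 0.923 and 1.75 RPKM in Neuron-PLA, against 4.49 and 4.69 in Neuron-ctrl (−1.28, SE 0.23, limma adjusted p = 0.0534). Over all alternatives its change was between −1.79 and −0.48 (limma adjusted p 0.0440 to 0.542). Its copy Gm15772 held 10.4 and 14.2 RPM in Neuron-PLA, against 13.0 and 15.6 in Neuron-ctrl. With pseudogene reads added, the change was −0.48 (SE 0.25, limma-voom adjusted p = 0.329).

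Markers moved here as well. The 8 microglial genes summed to 81.6 and 71.9 RPKM in Neuron-PLA, against 127 and 130 in Neuron-ctrl, and 2 were called lower. The 7 endothelial and pericyte genes summed to 4.14 and 4.89 RPKM in Neuron-PLA, against 29.7 and 27.7 in Neuron-ctrl, and both that were tested were called lower. In Neuron-PLA, Cdh5 and Tek were at 0 in both libraries. The 6 astrocyte genes summed to 111 and 136 RPKM in Neuron-PLA, against 206 and 219 in Neuron-ctrl, and 1 of the 4 tested was called lower. The 8 radial glia genes tested were all negative and 2 were called lower, and the list of 10 summed to 168 and 208 RPKM in Neuron-PLA, against 321 and 331 in Neuron-ctrl. The 12 neuronal genes summed to 3896 and 4033 RPKM in Neuron-PLA, against 3870 and 3913 in Neuron-ctrl. The 8 mitosis genes summed to 34.0 and 36.6 RPKM in Neuron-PLA, against 50.2 and 47.3 in Neuron-ctrl. Of these, 6 had negative and 2 positive changes (median −0.44), and 0 were called. The 8 erythroid genes summed to 30.8 and 41.0 RPKM in Neuron-PLA, against 82.3 and 89.0 in Neuron-ctrl, and 1 of the 3 tested was called lower. The part of these markers in the members' levels was not tested.

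Whether the change differed between the sets was tested as an interaction in limma. Of 81 members, 1 changed more positively in the first set, against 6.19% of 11705 genes, and 2 more negatively, against 5.48%. At an unadjusted p under 0.05, 6 were more positive, against 15.2% of all genes. Rpl22 was 24.5 and 22.4 RPKM in PLA1, against 40.1 and 32.5 in Ctrl1, and 35.3 and 36.3 RPKM in Neuron-PLA, against 38.0 and 33.7 in Neuron-ctrl. Its change in the first set was more negative by 0.60 (difference −0.60, SE 0.16, limma adjusted p = 0.0393). Hardly any of its reads lay on copies, with at least 99.7% on the gene row in every library. The difference lost its call in 7 of the 8 fits without 1 library. Rps2 (difference −1.12, SE 0.27, limma adjusted p = 0.0270) and Rpl26 (1.51, SE 0.31, limma adjusted p = 0.0137) were the others. With pseudogene reads added, their differences were −0.24 in both (limma-voom adjusted p = 0.486 for Rps2, range over all alternatives 0.0106 to 0.486, and 0.746 for Rpl26, range 0.0101 to 0.746).

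Levels were far from alike between the tables. Each library was scaled to its own total, and each table holds its own samples, so the following is a description with no test. The median member was 201 RPKM as a mean over the stages, 75.2 in NSC-Scramble, 16.6 in Ctrl1 and 23.3 in Neuron-ctrl. The order of the 90 members was close between NSC-Scramble and the stages (Spearman 0.87) and between Ctrl1 and Neuron-ctrl (0.97). It was looser between Ctrl1 and the stages (0.53). The highest members of all 4 overexpression groups were led by Rpl4, Rplp0, Rps3a1 and Rps6, whereas Rps15, highest in the stages, was 6.52 and 4.38 RPKM in Ctrl1. Rps15 was chosen here after its values were seen. For the 83 members that averaged 5 RPKM or more in the stages, ratios to the stage mean were related to transcript length. The Spearman value was 0.36 for Ctrl1 and 0.42 for NSC-Scramble.

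In 4 members at least 20% of the exon bases also belonged to another gene on the same strand, and these had the 4 lowest NSC-Scramble levels relative to the stages among those 83 members. Of the lower members, Rps12l1 and Rpl3l were at 0 in NSC-Scramble. They too were singled out after their values were seen. Rpl24, with 47.0% of its exon bases in another gene, was 499.6, 352, 373, 421, 391 and 359 RPKM from E11 to E18, against 0.790 and 0.899 in NSC-Scramble. Rpl13a, with 35.4%, was 473 RPKM as a mean of the stages and 11.0 in NSC-Scramble. Rpl36al (24.5%) was 68.6 and 0.747 RPKM, and Rps10 (20.6%) 150 and 2.75 RPKM, in the same order. The strand setting and the treatment of reads that match more than 1 gene are not given in the sources used here.

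**Figure D5:**
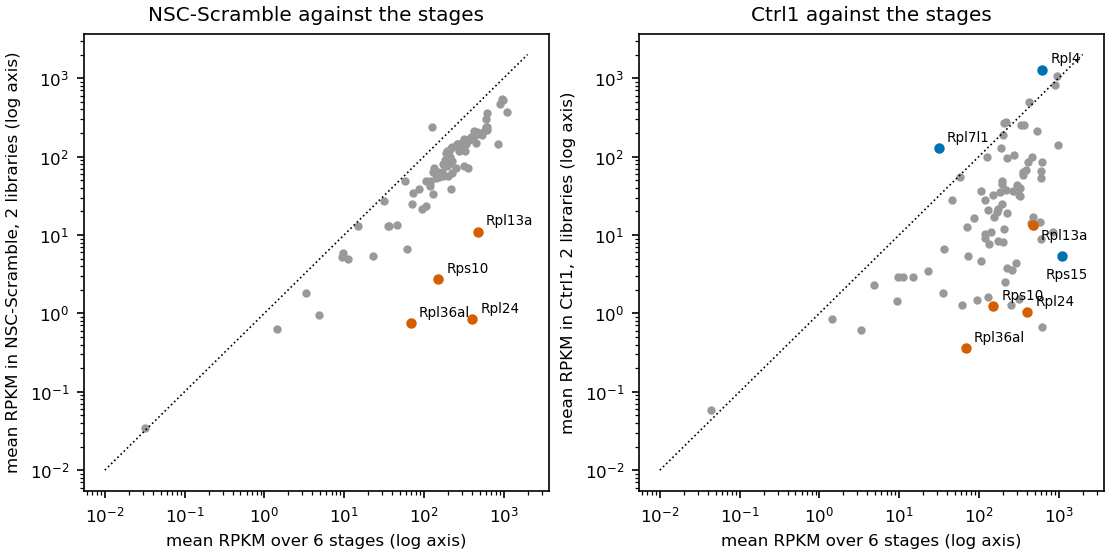
Mean RPKM of each member in NSC-Scramble (left) and Ctrl1 (right), 2 libraries each, against its mean over 6 stages, on log axes with the line of equality dotted and members at 0 left out. Orange marks the 4 members with at least 20% of exon bases in another gene, such as Rpl24 at 0.844 RPKM in NSC-Scramble and 399 over the stages. Blue marks Rps15, Rpl4 and Rpl7l1.

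Of the ribosomal proteins outside the symbol pattern, Fau moved with the members in the first set. Fau, a ubiquitin-like fusion, fell in the first set, to 42.7 and 39.5 RPKM in PLA1, against 72.1 and 54.2 in Ctrl1 (−0.60, SE 0.13, limma adjusted p = 0.0160). Rack1, a scaffold on the small subunit, did not pass there (−0.24, limma adjusted p = 0.117). In the neuron set both were negative without passing, Fau at −0.52 (limma adjusted p = 0.140) and Rack1 at −0.26 (0.207). On the slope Rack1 passed (−0.09 per day, limma adjusted p = 0.0426).

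The other lists of the pathway are given for the first set beside all genes tested, of which 16.3% were called higher and 13.2% lower, with a median change of 0.06. Of 65 ribosome biogenesis genes 27 were called higher and 2 lower, with a median change of 0.29, led by Rrp1b (0.80) and Gnl3 (0.80, a nucleolar protein of stem cells). Of 34 genes of RNA polymerases I and III 6 were called higher and 3 lower, with Polr3g at 0.89 and Polr1a at 0.68. The median of that list was also 0.06, and its share called higher was near that of all genes. Of 18 other genes of the TOP class, mostly translation factors, 0 were called higher and 8 lower (median −0.30), led by Eif3e (−0.52) and Eif3h (−0.51). Of 35 other initiation and elongation factors 10 were higher and 2 lower, led by Eif3b (0.87) and Gspt1 (0.70). Of 18 regulators around mTORC1 7 were higher and 0 lower, with Larp1 at 0.78 and Eif4ebp1 at 0.49. The members and the TOP class had negative medians, and the other 4 lists positive ones.

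In the knockdown and in the neuron set none of these lists had a called gene, where 0% of all genes in the knockdown and 0.877% in the neuron set were called. The 18 TOP-class factors of the neuron set all had negative changes (median −0.16). On the slope, 25.5% of all genes were called lower with age and 19.6% higher. Of 65 biogenesis genes 33 were called lower and 3 higher, led by Npm1 (−0.23 per day), a nucleolar chaperone, and Dkc1 (−0.23). Of 19 TOP-class factors 12 were lower and 0 higher, led by Vim (−0.40) and Nap1l1 (−0.24), an intermediate filament and a histone chaperone whose mRNAs are counted in this class. Of 36 other factors 24 were lower and 3 higher, where Eef1a2, the neuronal elongation factor, had the steepest rise of the list (0.42 per day). Of 34 polymerase genes 9 were lower and 0 higher, and of 19 regulators around mTORC1 5 were lower and 1 higher, both with a share called lower near that of all genes.

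The start sites were searched for short pyrimidine runs, since the TOP tract begins there. In RefSeq (GRCm38.p6), 65 of the 90 members matched a start site. The motif CTTTCC was looked for in the 60 bases around it, as was the motif CTTTTC, and as a further variant CTCTTT. These can overlap each other. On the transcript's strand, 23 of 65 members (35.4%) held 1 of them, against 7.60% of 27025 genes. On the opposite strand it was 7.69% of the members, against 7.34% of all genes. The 30 bases around the start are shown for the largest fall, another large fall and a rise of the first set, with a motif in capitals.
Rps27 (chr3:90213634-90213663, − strand): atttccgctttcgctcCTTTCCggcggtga
Rpl19 (chr11:98026695-98026724, + strand): tgaccaaacgccctcactgcgcatgtgcgc
Rpl34 (chr3:130730384-130730413, − strand): cgccttccctgacgtacttcctgtccggcg
The Rps27 window holds a motif, and the other 2 hold none of the 3, which says only that these letters are not in this window.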

How the data were processed

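The authors deposited RPKM per gene in 4 tables. The submitters' processing notes name STAR 2.7.9a, HTSeq 0.6.0 and the build mm10. How RPKM were made, and the strand setting, are not given in the sources used here. RPKM times the merged exon length in GENCODE M21 and a library total gave whole reads, within 0.01, for 97.5% to 97.8% of nonzero values, and 97.2% of 32941 genes had a length. The members and lists were chosen with earlier results of these data known.

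limma-trend (limma 3.58.1, R 4.3.3) took log2(RPKM + 1) of genes averaging 1 RPKM or more, with Benjamini-Hochberg adjustment over all of them. Folds on this scale understate changes of low genes. Each table was fitted alone, and the interaction used both overexpression tables. Fits were tested on simulated data. Copies were found by shared windows of 50 and 100 bases in GENCODE M21 transcripts. Genes named were the 8 largest called changes in each direction (with under 5 called, the 5 of smallest p), paralogue pairs, the 5 highest of each table, stalk and Mdm2-binding members, and the 2 largest called changes of each list. Exceptions are stated. Some genes are not reported here.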

Additional observations from a re-analysis of the deposited data

Results flagged for a closer look

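The difference in response between the overexpression sets passed the test of that difference for 3 members. It was 1.51 on the log2 scale for Rpl26 (first set minus neuron set), −1.12 for Rps2 and −0.60 for Rpl22 (limma adjusted p = 0.0137, 0.0270 and 0.0393). In these 8 libraries the gene row held at most 32.6% of the Rpl26 family's reads and at most 54.97% of the Rps2 family's. With the pseudogene reads added, the differences were −0.24 for both, and neither passed. For Rpl22 the gene row held nearly all reads, and the difference was −0.63 with the pseudogene reads added (limma-voom adjusted p = 0.0353, range over all alternatives 0.0189 to 0.239).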

How the results depend on the processing

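In the knockdown 0 members were called under every alternative run, and leaving out 1 library moved the median change between −0.13 and 0.14. Most counts below are given without the share of all genes called in the same fit. They show only how the members' count moved. In the first set the count of members lower was 0 and of members higher 0 with no filter on low values, where 307 of 32941 genes were called. The count higher was 1 with median-ratio scaling, 0 with upper-quartile scaling, 1 without the -like paralogues and 4 with the replicate block. In the same set, leaving out 1 library gave 2 to 48 lower, 0 to 1 higher, and a median change of −0.61 to −0.25. Restricting the first set to members with under 10% of 100-base windows shared, chosen after seeing the data, gave 5 lower and 1 higher of 13. The planned restriction to members without shared sequence is not reported. In the neuron set the count lower was 2 with upper-quartile scaling, 8 with limma-voom on recovered reads and 10 with pseudogene reads added, and 0 to 21 without 1 library, with a median change of −0.55 to −0.22. The 1 higher member became 0 with no filter, with pseudogene reads added and in that restriction, and 0 to 1 without 1 library. On the slope the count lower was 2 with no filter, 9 and 5 with the scalings, 11 after removal of a length and GC trend, and 4 in the restriction. Leaving out 1 stage gave 2 to 30 lower, 0 to 3 higher and a median of −0.083 to −0.028. In the difference between sets the counts were 0 and 0 with no filter, 2 higher with the length and GC trend removed and with the replicate block, 0 higher and 1 lower with pseudogene reads added and in the restriction. There, leaving out 1 library gave 1 higher, 0 to 2 lower and a median of −0.29 to 0.11. The ratios of summed levels kept their values within the replicate spread under the share of reads, and without 1 library they were 0.906 to 1.10 in the knockdown, 0.700 to 0.862 in the first set and 0.748 to 0.852 in the neuron set.

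Of 432 alternative values of single genes chosen by the naming rule, 328 kept their direction and side of the threshold and 3 turned their direction: Rpl7l1 in the knockdown without the first scramble library (0.0065, and −0.27 without the second), and, with pseudogene reads added, Rpl34 in the first set (−0.29) and Rpl26 in the difference between sets (−0.24). In the first set the median of all genes was 0.06 as reported and −0.03 with upper-quartile scaling. Replicate numbers are shared between groups, but no label says that they pair libraries. The correlation of same-numbered deviations was 0.01 in the knockdown, 0.10 in the first set and 0.05 in the neuron set. With the replicate block the first set had 54 lower, the neuron set 0 lower and 1 higher, and the knockdown 0. The share of all genes called with the block is not given, so the 54 cannot be set against a background. Depth limits low members most, as those near 1 RPKM in the overexpression tables. The causes of these dependences were not tested.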
